A study of Mus musculus with 10 samples.

Results

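Syn1, Rab3a, Rab4b, Calm2 and Tubb4a are 5 genes of the synapse and of the neuronal cytoskeleton that earlier work on the prefrontal cortex in major depression linked to the transcription factor GATA1. They were taken by symbol from the mRNA tables of the series, where each has 1 row, out of 40904 gene symbols in all. All 5 members were found, and all 5 passed the minimum of a mean of 1 FPKM that left 13740 genes for comparison. FPKM is the number of fragments per kilobase of transcript and per 1000000 mapped fragments, so levels can be compared between genes of different length.

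The cells were primary cortical neurons of ICR mouse embryos at E14, cultured for 11 days in vitro. They had received either AAV-Gata1, an adeno-associated virus carrying Gata1, or AAV-Control, so a virus was delivered in both groups. The promoter that drives Gata1, the number of embryos pooled and the dose of virus are not stated in the labels. Each condition had 1 mRNA library, which leaves every difference below without a replicate check and without a test.

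GATA1 is a zinc finger protein that binds DNA at GATA motifs and, with its partners, can activate or repress a gene. In cortical neurons the products of the 5 genes serve the traffic that keeps a synapse working. Synapsin I tethers vesicles in the reserve pool of the nerve terminal, and the GTPase RAB3A sits on vesicles and acts late in their release. RAB4B is a GTPase of the RAB4 group, which returns cargo from early endosomes to the cell surface, calmodulin is the main calcium sensor of the cell, and TUBB4A is a beta tubulin of microtubules that is abundant in brain.

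Promoter sequence was at hand for 4 of the 5 genes, from RefSeq on the mouse build GRCm38.p6, as windows of 300 bases that run from 250 bases before each annotated start to 50 after it. Calm2 had no entry. The 250 bases upstream are shown because the study delivered a factor that reads GATA motifs, and because all 4 genes hold at least 1 such motif there. Capitals mark the motifs: the core GATA on the strand of the gene, or TATC where the core lies on the opposite strand, extended to 6 letters where the flanking bases give AGATAA and AGATAG or, with T as the first letter, TGATAA and TGATAG.

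Syn1, GRCm38.p6, chrX:20920919-20921168, minus strand: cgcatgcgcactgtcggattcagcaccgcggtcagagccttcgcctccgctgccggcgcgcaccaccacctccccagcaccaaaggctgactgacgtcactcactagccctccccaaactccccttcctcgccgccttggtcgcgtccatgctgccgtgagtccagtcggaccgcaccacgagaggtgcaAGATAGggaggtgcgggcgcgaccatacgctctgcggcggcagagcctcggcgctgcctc
Rab3a, GRCm38.p6, chr8:70754453-70754702, plus strand: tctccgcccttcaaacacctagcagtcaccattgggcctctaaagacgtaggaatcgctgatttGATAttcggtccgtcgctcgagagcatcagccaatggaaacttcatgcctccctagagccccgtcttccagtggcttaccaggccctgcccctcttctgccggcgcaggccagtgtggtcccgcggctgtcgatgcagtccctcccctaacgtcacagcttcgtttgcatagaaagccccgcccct
Rab4b, GRCm38.p6, chr7:27178884-27179133, minus strand: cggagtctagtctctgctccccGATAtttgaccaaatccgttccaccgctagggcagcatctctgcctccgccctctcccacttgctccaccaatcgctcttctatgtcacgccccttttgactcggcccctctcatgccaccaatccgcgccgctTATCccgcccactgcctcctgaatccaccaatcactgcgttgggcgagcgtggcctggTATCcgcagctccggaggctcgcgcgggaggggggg
Tubb4a, GRCm38.p6, chr17:57087601-57087850, minus strand: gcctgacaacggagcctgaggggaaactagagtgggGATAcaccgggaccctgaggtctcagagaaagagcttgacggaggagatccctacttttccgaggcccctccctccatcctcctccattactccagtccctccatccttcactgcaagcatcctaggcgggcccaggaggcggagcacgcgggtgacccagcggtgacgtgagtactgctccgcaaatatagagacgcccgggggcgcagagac

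Syn1 alone among the 4 held a 6-letter motif, AGATAG, which begins 60 bases before the annotated start. Rab4b held 3 copies of the core, beginning 228, 94 and 36 bases before the start, the last 2 on the opposite strand. Rab3a held a single core, 186 bases before the first of its 2 annotated starts, and the window of its other start held none. Tubb4a held a single core, 214 bases before the start. GC content over the whole windows was 68.3% for Syn1, 64.3% for Rab4b, 62.3% for Tubb4a and 60.0% for the first Rab3a window.

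These matches are common. Of all 32851 promoter windows 57.9% held the core and 29.8% a 6-letter motif on either strand. Among the 12737 windows of genes compared here, whose median GC content was 61.0%, the shares were 43.9% and 17.9%. Among 9 paralogues of the 5 genes with a window, 6 held the core and 3 a 6-letter motif (Rab3b, Tubb4b and Tubb5). A match is a run of letters and was not tested as a binding site.

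**Figure D1:**
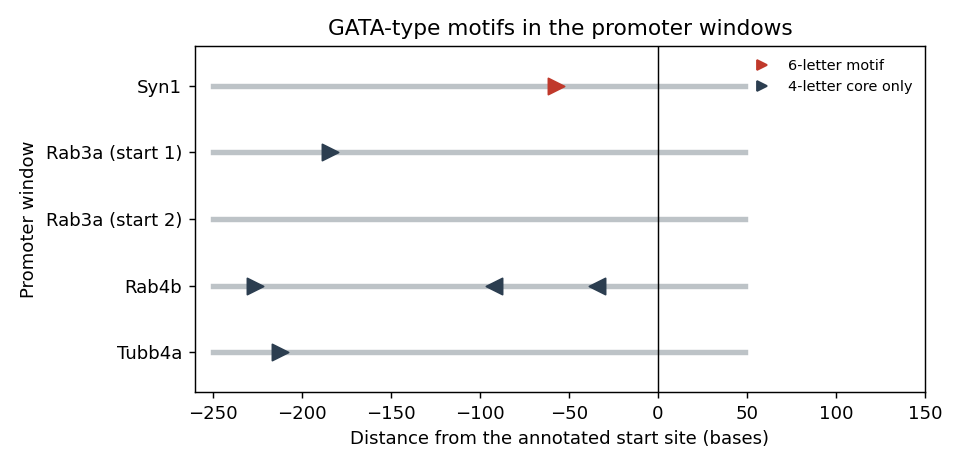
GATA-type motifs in the promoter windows of Syn1, Rab3a (2 annotated starts), Rab4b and Tubb4a, by distance from the annotated start in bases. Grey bars are the windows, red triangles the 6-letter motif, dark triangles the 4-letter core alone, and a triangle points right for the strand of the gene. Syn1 holds the 6-letter motif 60 bases before its start, Rab4b holds 3 cores, and the second Rab3a window holds none.

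Gata1 itself had 2.07 FPKM in the AAV-Gata1 library and was listed at 0 in the AAV-Control library, so it goes the way of the labels, at a level below that of 12439 other genes. The libraries summed to 476848 FPKM (AAV-Gata1) and 476398 FPKM (AAV-Control). Their sequencing depth is unknown, since no counts were used and no steps of whole fragments could be found in the low values.

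All 5 genes were lower in the AAV-Gata1 library, by between 4.69% (Calm2) and 15.1% (Tubb4a) in FPKM, and none was near a 2-fold difference. Differences are given from here on as log2((AAV-Gata1 + 1)/(AAV-Control + 1)) of the FPKM, where a negative value is lower with AAV-Gata1. Of the 13740 genes compared 54.7% were lower and 0.517% were at least 2-fold apart in either direction. The median difference of the 5 genes was −0.14, and that of all genes compared was −0.013. On this scale 3 of the 5 (Tubb4a, Rab4b and Syn1) were lower by at least 1.1-fold, a limit chosen after the values were seen, as were 13.7% of all genes compared. Among the 4972 genes that averaged 20 FPKM or more, 55.2% were lower and 7.0% were lower by that limit.

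**Figure D2:**
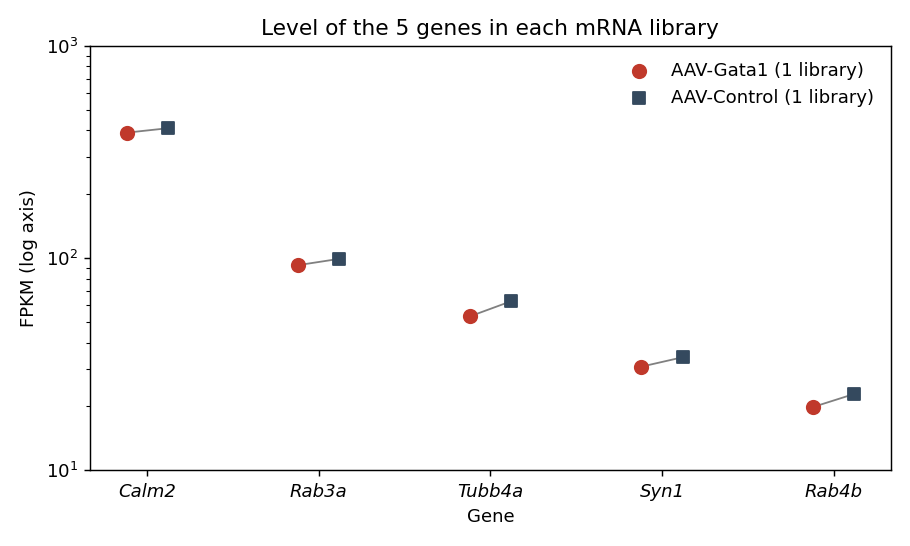
FPKM of the 5 genes on a log axis, with 1 point for each library and the AAV-Gata1 library (red circle) left of the AAV-Control library (dark square). Each red point lies below its partner, from Calm2 (390.1 against 409 FPKM) to Rab4b (19.9 against 22.9 FPKM), and the order of the genes is the same in both libraries.

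Among the vesicle genes, Syn1 had 30.8 FPKM in the AAV-Gata1 library, against 34.1 FPKM in the AAV-Control library. It was thus 9.68% lower with AAV-Gata1, a log2 difference of −0.14. Because the spread of differences narrows as genes become more abundant, each gene was also set beside genes within 1.5-fold of its own mean FPKM. For Syn1 these were 2674 genes, with a median difference of −0.016, and 7.29% of them lay further below 0 than Syn1.

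Rab3a had 92.6 FPKM in the AAV-Gata1 library and 99.2 FPKM in the AAV-Control library, or 6.61% less with AAV-Gata1 (log2 difference −0.098). Of 892 genes of like level, whose differences had a median of −0.0028, 9.87% lay further below 0. Over all genes compared, which include many of low level and wide spread, that share was 21.4%.

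Rab4b, the endosomal member, had 19.9 FPKM with AAV-Gata1 and 22.9 FPKM with AAV-Control, which is 13.2% lower with AAV-Gata1 (log2 difference −0.20). It is the least abundant of the 5, at the 63.9th percentile of the genes compared in the AAV-Gata1 library and the 67.8th in the AAV-Control library. Of 3254 genes of like level 4.36% lay further below 0.

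Calm2, the calcium sensor gene, had 390.1 FPKM with AAV-Gata1 and 409 FPKM with AAV-Control. The difference was the smallest of the 5, at −0.069 or 4.69% lower with AAV-Gata1. Only 139 genes had a higher FPKM in the AAV-Gata1 library and 127 in the AAV-Control library, so few genes can be set beside it. Of the 175 within 1.5-fold of its level 10.9% lay further below 0.

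Tubb4a, the tubulin gene, had 53.1 FPKM with AAV-Gata1 and 62.6 FPKM with AAV-Control. At 15.1% lower with AAV-Gata1 (log2 difference −0.23), it had the largest difference of the 5. Of 1665 genes of like level only 19 (1.14%) lay further below 0, the smallest such share among the 5 genes. Ranked by these shares the order was Tubb4a, Rab4b, Syn1, Rab3a and Calm2, which is also their order by size of difference. With genes within 1.2-fold of each level in place of 1.5-fold, Calm2 (8.05%) and Rab3a (8.42%) change places. With 1 library per condition it cannot be said which neighbours in this order differ beyond the spread between cultures.

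**Figure D3:**
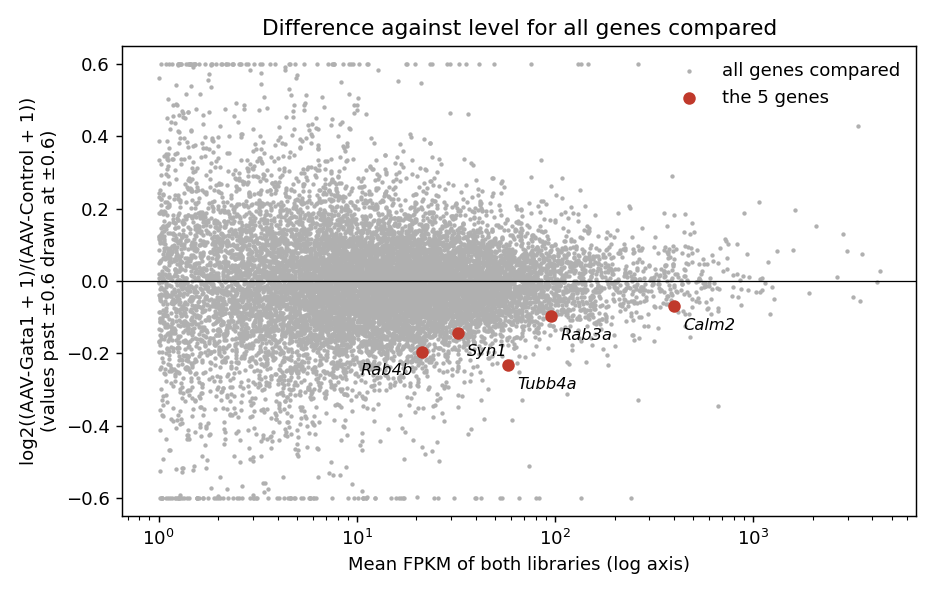
Log2 difference between the AAV-Gata1 and the AAV-Control library against mean FPKM (log axis) for the 13740 genes compared (grey) and the 5 genes (red). Values beyond 0.6 in either direction are drawn at that limit. The 5 red points lie below 0, and Tubb4a, at −0.23, sits at the lower edge of the genes of its level.

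The paralogues of the 5 genes were measured in the same libraries. Each synapsin gene was lower in the AAV-Gata1 library. Syn2, the most abundant of the family, had 34.8 FPKM with AAV-Gata1 and 37.4 FPKM with AAV-Control (−0.10), and Syn3 had 5.38 FPKM with AAV-Gata1 and 6.59 FPKM with AAV-Control (−0.25). Syn1 made up 43.4% of the summed synapsin FPKM in the AAV-Gata1 library and 43.7% in the AAV-Control library. A share within a library does not depend on how the libraries were scaled, and the summed level of the family was 70.9 FPKM with AAV-Gata1 and 78.0 FPKM with AAV-Control.

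The Rab3 genes, whose products can replace each other in part in mice, were likewise all lower. Rab3b had 15.8 FPKM with AAV-Gata1 and 19.97 FPKM with AAV-Control (−0.32), the largest difference among the relatives of the 5 genes. Rab3c had 9.52 FPKM with AAV-Gata1 and 11.03 FPKM with AAV-Control (−0.19), and Rab3d had 5.28 FPKM with AAV-Gata1 and 5.51 FPKM with AAV-Control (−0.052). Rab3a is the main member, and its share of the summed Rab3 FPKM was 75.2% with AAV-Gata1 and 73.1% with AAV-Control. The ratio of Rab3a to Rab3b was 5.86 in the AAV-Gata1 library and 4.97 in the AAV-Control library. Rab4a, the closest relative of Rab4b, was not analysed here.

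Calm2 and Calm3 encode the same protein from separate genes. Calm3 had 357 FPKM with AAV-Gata1 and 373 FPKM with AAV-Control (−0.063), close to the −0.069 of Calm2. The ratio of Calm2 to Calm3 was 1.092 with AAV-Gata1 and 1.096 with AAV-Control. Calmodulin genes have processed pseudogenes, and the labels do not say how reads shared with them were assigned.

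Among beta tubulins the abundant paralogues of Tubb4a lay nearer 0 than Tubb4a. Tubb2b had 598 FPKM with AAV-Gata1 and 599.7 FPKM with AAV-Control (−0.0044), and Tubb2a had 556 FPKM with AAV-Gata1 and 558 FPKM with AAV-Control (−0.0054). Both turn above 0 when differences are centred on the median of all genes. Tubb5 had 525 FPKM with AAV-Gata1 and 546 FPKM with AAV-Control (−0.058). Tubb4b, the other class IV beta tubulin, was higher with AAV-Gata1, at 406 FPKM against 379.9 FPKM with AAV-Control (0.097).

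Tubb4a supplied 2.48% of the summed FPKM of the 7 beta tubulin genes analysed here, of 8 listed, with AAV-Gata1 and 2.91% with AAV-Control, and its ratio to Tubb4b was 0.131 with AAV-Gata1 and 0.165 with AAV-Control. These genes share stretches of coding sequence, so reads could have been assigned to either. The low-level Tubb6 had 6.22 FPKM with AAV-Gata1 and 6.79 FPKM with AAV-Control (−0.11), and Tubb1, a platelet tubulin, was listed at 0 in both.

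**Figure D4:**
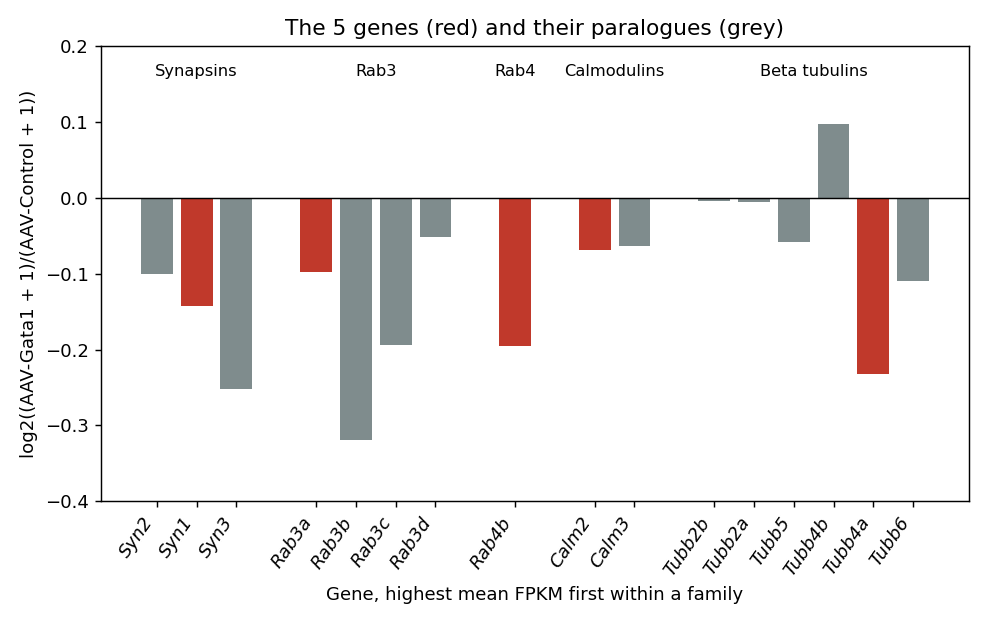
Log2 difference between the AAV-Gata1 and the AAV-Control library for the 5 genes (red) and their measured paralogues (grey), grouped by family and ordered by mean FPKM within a family. Of the 16 bars only that of Tubb4b lies above 0 (with centring on the median of all genes, those of Tubb2a and Tubb2b as well), and Rab3b, at −0.32, reaches furthest below.

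Genes for proteins that work with the 5 were described by pathway. Of 17 genes of the Rab3 cycle that could be compared 14 were lower and 3 higher (12 and 5 after centring on the median of all genes). Thus 82.4% were lower before centring, against 54.7% of all genes compared. The median difference was −0.064 beside −0.013 for all genes. Rab3a did not stand apart from this list, as 5 of the 17 lay further below 0. Unc13a, whose product primes vesicles for release, had 11.8 FPKM with AAV-Gata1 and 14.4 FPKM with AAV-Control (−0.27). Rab3ip, which encodes a guanine nucleotide exchange factor for RAB8 that binds RAB3A, had 7.12 FPKM with AAV-Gata1 and 8.30 FPKM with AAV-Control (−0.20). Dmxl2, a vesicle protein that binds regulators of RAB3, had 19.6 FPKM with AAV-Gata1 and 22.1 FPKM with AAV-Control (−0.17).

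Of 20 genes of Rab4 and of early or recycling endosomes 8 were lower and 12 higher, with a median of 0.032. That is 40% lower, against 54.7% of all genes compared. Ehd4, a membrane remodelling ATPase of endosomes, had 10.4 FPKM with AAV-Gata1 and 8.56 FPKM with AAV-Control (0.26), and Rabep2, an effector of early endosome GTPases, had 6.92 FPKM with AAV-Gata1 and 5.72 FPKM with AAV-Control (0.24). Gripap1, which encodes the RAB4 effector GRASP1 of neuronal recycling endosomes, was lower, at 19.9 FPKM with AAV-Gata1 and 22.8 FPKM with AAV-Control (−0.19). Rab4b lay below 0 by more than any of these 20 genes.

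Of 28 genes for calmodulin-binding proteins 20 were lower and 8 higher (median −0.064), or 18 and 10 after centring on the median of all genes. Of all genes compared 54.7% were lower before centring. The 3 with the largest differences at a mean of 5 FPKM or more were all lower. Pde1a, a calmodulin-activated phosphodiesterase, had 8.65 FPKM with AAV-Gata1 and 9.93 FPKM with AAV-Control (−0.18). Rasgrf1, a calcium-responsive exchange factor for Ras, had 5.76 FPKM with AAV-Gata1 and 6.64 FPKM with AAV-Control (−0.18), and Ppp3cc, a calcineurin catalytic subunit, had 9.41 FPKM with AAV-Gata1 and 10.5 FPKM with AAV-Control (−0.14). Calm2 lay near the middle of this list, with 13 of the 28 further below 0.

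Kinases, phosphatases and vesicle proteins around synapsin I numbered 15, of which 9 were lower and 6 higher (median −0.026). The share lower, 60%, was near the 54.7% of all genes compared. Camk2a and Camk2b encode subunits of a calcium and calmodulin-dependent kinase that phosphorylates synapsin I. Camk2a had 21.3 FPKM with AAV-Gata1 and 23.4 FPKM with AAV-Control (−0.13), and Camk2b had 70.2 FPKM with AAV-Gata1 and 75.5 FPKM with AAV-Control (−0.10). Ppp3r1, the regulatory subunit of calcineurin, was higher, at 79.9 FPKM with AAV-Gata1 and 73.9 FPKM with AAV-Control (0.11). None of the 15 lay as far below 0 as Syn1.

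Alpha tubulins, tubulin folding cofactors, stathmins and the tubulin-linked genes Arl2 and Ttll7 included 8 lower and 7 higher of the 15 compared (median −0.026). The share lower, 53.3%, was near the 54.7% of all genes compared. Tuba1c had 7.70 FPKM with AAV-Gata1 and 6.36 FPKM with AAV-Control (0.24), the folding cofactor gene Tbcb had 63.2 FPKM with AAV-Gata1 and 70.5 FPKM with AAV-Control (−0.16), and Stmn3, a neuronal stathmin, had 219 FPKM with AAV-Gata1 and 236 FPKM with AAV-Control (−0.11). None of the 15 lay as far below 0 as Tubb4a.

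**Figure D5:**
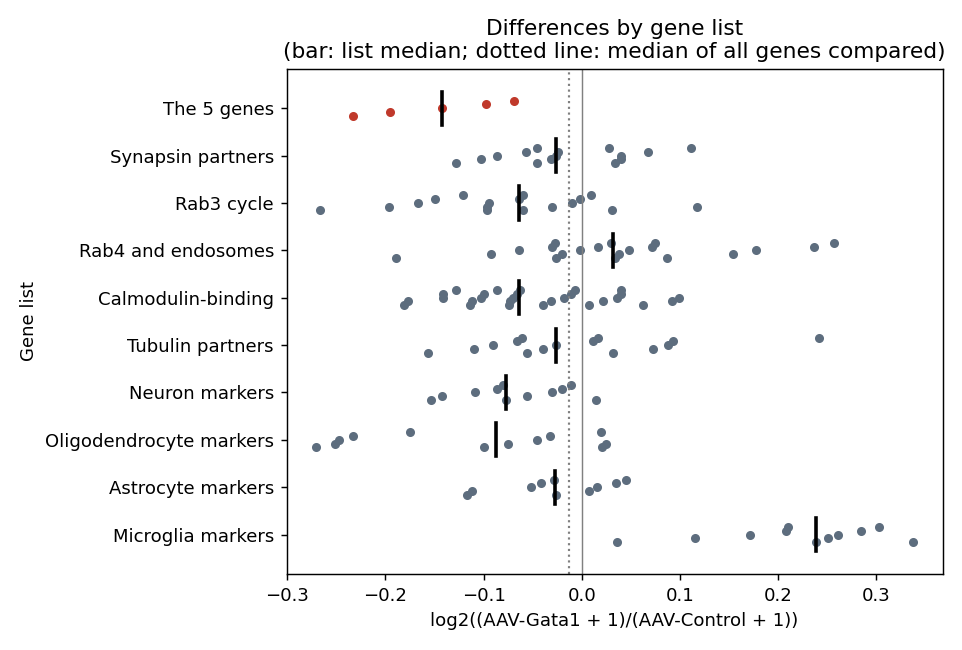
Log2 difference between the AAV-Gata1 and the AAV-Control library for the genes compared in each list (points), with the list median (black bar) and the median of all genes compared (dotted line). The 5 genes lie between −0.23 and −0.069, the endosome list has a median of 0.032, and all 11 microglia markers lie above 0.

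In bulk RNA fewer cells of a type and less RNA per cell cannot be told apart, so the cell type markers are given beside these values. Of 11 neuron markers compared 10 were lower and 1 higher, or 9 and 2 after centring on the median of all genes. Over all genes compared 54.7% were lower before centring. The neuron markers had a median of −0.077 and a summed level of 1006 FPKM with AAV-Gata1 and 1040 FPKM with AAV-Control. Stmn2, the most abundant of the 11, had 242 FPKM with AAV-Gata1 and 252 FPKM with AAV-Control (−0.056). Map2 had 236 FPKM with AAV-Gata1 and 239.7 FPKM with AAV-Control (−0.020). Furthest below 0 were Eno2 (36.5 FPKM with AAV-Gata1 and 40.7 FPKM with AAV-Control, −0.15) and Elavl3 (45.5 and 50.3 FPKM, −0.14). The least abundant of the 11 had 2.97 FPKM with AAV-Gata1 and 3.18 FPKM with AAV-Control. Tubb4a and Rab4b lay further below 0 than each of the 11, Syn1 further than 10 of them and Rab3a further than 8. Syn1 (−0.1425) was in effect level with Elavl3 (−0.1420). Calm2 lay among the neuron markers, with 6 of the 11 further below.

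Oligodendrocytes, which also express Tubb4a, were represented by 12 compared markers. Of these 9 were lower and 3 higher (median −0.087, and −0.14 among those averaging 5 FPKM or more). Over all genes compared 54.7% were lower. The summed level of the markers was 318 FPKM with AAV-Gata1 and 336 FPKM with AAV-Control. Further below 0 than Tubb4a lay 3 of the 12. They were Bcas1 (14.8 FPKM with AAV-Gata1 and 18.0 FPKM with AAV-Control, −0.27), Enpp2 (8.01 and 9.73 FPKM, −0.25) and Gpr17 (12.6 and 15.2 FPKM, −0.25). Sox10 (−0.23) was level with Tubb4a. Among the most abundant of the 12 markers Olig1 had 83.5 FPKM with AAV-Gata1 and 87.9 FPKM with AAV-Control (−0.075). Cnp was higher, at 60.2 FPKM with AAV-Gata1 and 59.4 FPKM with AAV-Control (0.020). The myelin gene Mbp was also higher, at 38.5 FPKM with AAV-Gata1 and 37.8 FPKM with AAV-Control (0.025).

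Microglia markers were higher in all 11 of 11 cases (median 0.24), at a summed 674 FPKM with AAV-Gata1 and 572 FPKM with AAV-Control. Of the 13740 genes compared 6222 were higher, and the median of all was −0.013. Tyrobp, a signalling adaptor, had 153 FPKM with AAV-Gata1 and 132 FPKM with AAV-Control. The homeostatic markers P2ry12 (0.117 and 0.178 FPKM) and Tmem119 (0.154 and 0.0738 FPKM) were near 0 in the AAV-Gata1 and the AAV-Control library.

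Of 10 astrocyte markers 6 were lower and 4 higher (median −0.027), at a summed 2507 FPKM with AAV-Gata1 and 2515 FPKM with AAV-Control. The share lower, 60%, was near the 54.7% of all genes compared. The most abundant astrocyte marker was Gfap, at 897 FPKM with AAV-Gata1 and 887 FPKM with AAV-Control (0.015). Gfap was thus above every neuron marker compared in both libraries. Markers of pericytes, smooth muscle and fibroblasts, taken as 1 list, summed to 83.5 FPKM with AAV-Gata1 and 99.96 FPKM with AAV-Control. Only 3 of the 8 could be compared, and all 3 were lower (2 of 3 after centring). Most of the difference in the sum was Acta2, smooth muscle actin, which had 60.7 FPKM with AAV-Gata1 and 76.4 FPKM with AAV-Control (−0.33). Pdgfrb, a receptor gene of pericytes, had 13.57 FPKM with AAV-Gata1 and 13.60 FPKM with AAV-Control (−0.0030). Endothelial markers summed to 11.8 FPKM with AAV-Gata1 and 11.6 FPKM with AAV-Control, with Cdh5 listed at 0 with AAV-Gata1 and Cldn5 with AAV-Control. The part of any of these cell types in the lower values of the 5 genes was not tested.

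Among the 9858 genes compared that had a promoter window, those with and without a GATA motif can be set side by side. Of 4756 genes compared whose windows held the core 54.4% were lower (median −0.012), against 55.1% of 5102 genes without it (median −0.013). For the 6-letter motifs the shares were 54.3% of 2067 genes with a motif (median −0.012) and 54.9% of 7791 genes without (median −0.013). Lower by at least 1.1-fold were 13.5% of genes with a 6-letter motif and 12.2% of those without. For the core these shares were 12.5% with and 12.4% without. A link between motif and difference was not tested.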

How the data were processed

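The mRNA of 1 AAV-Gata1 and 1 AAV-Control culture was measured; the labels' protocols name polyA RNA and a stranded paired-end library of 100-base reads. The deposited values are FPKM per the file headers. The submitters' processing notes list TopHat2 2.1.1, Cufflinks 2.1.1 beside Cuffdiff 2.1.1, with mm9 and mm10 but no word on which build served the mRNA. Neither counting by strand nor further scaling is stated.

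Each table held 40993 rows. The 6 without a symbol (0.0113% of summed FPKM with AAV-Gata1, 0.0122% with AAV-Control) were left out, and the highest-mean row per symbol was kept. Differences are log2((AAV-Gata1 + 1)/(AAV-Control + 1)) for genes averaging 1 FPKM or more; this understates differences of low genes. Of 1283 genes under 0.1 FPKM in both libraries at most 43 shared a log2 ratio to within 0.02, so depth was not recovered. No test was possible with 1 library per group. The count of genes past the 2-fold limit was tested on simulated data (Python 3.11.15, pandas 2.3.3). The 1.1-fold counts and the shares among genes of like level were not tested in this way.

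The 5 genes and the lists were chosen with earlier results of these data known. The genes named are the 5, their families, and the 3 largest differences per partner list at a mean of at least 5 FPKM. Up to 3 most abundant markers per list, genes that overlap one of the 5, and Gata1 are also named. Markers near 0 were added, as were the neuron and oligodendrocyte markers furthest below 0, chosen after their values were seen. In the closing section adjacent genes and the listed genes nearest to each of the 5 in level and difference were added. The ChIP, input and small RNA samples were not analysed here, and some listed genes are not reported here.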

Additional observations from a re-analysis of the deposited data

How the results depend on the processing

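All 5 genes stayed lower in the AAV-Gata1 library under each of the 7 alternatives (pseudocount of 0.1 or none, no minimum or a mean of at least 5 FPKM, summed rows, centring on the median, and scaling to a sum of 1000000). Their differences ranged from −0.24 to −0.22 for Tubb4a, −0.20 to −0.18 for Rab4b, −0.15 to −0.13 for Syn1, −0.0996 to −0.085 for Rab3a and −0.071 to −0.057 for Calm2. Centring on the median of −0.013, which raised each value, took Syn1 just inside the 1.1-fold limit and left 2 of the 5 past it. With no minimum the median of the pericyte, smooth muscle and fibroblast list turned to 0.016 (−0.13 in the report's setting). The endothelial median turned to 0.053 (−0.11) with no minimum, and at a mean of at least 5 FPKM no endothelial marker remained. No other list median changed sign, but with no minimum the beta tubulin median was −0.0054 (−0.032) and that of the tubulin partners −0.0069 (−0.026), and centring gave −0.019 and −0.013 for these lists, −0.014 for the synapsin partners (−0.026) and −0.015 for astrocyte markers (−0.027). After scaling, which adds a marker, the median of the pericyte, smooth muscle and fibroblast list was −0.071. Genes 2-fold or more apart numbered 71, but 130 with a pseudocount of 0.1, 41 at a mean of at least 5 FPKM and 147 after scaling. Genes lower by at least 1.1-fold numbered 1888, but 3117 with no minimum and 1136 at a mean of at least 5 FPKM (13.7%, 7.6% and 10.9% of the genes compared). Genes lower at all numbered 7518 of 13740 (54.7%) and, with no minimum, 11362 of 40904 (27.8%). With windows of 1.2-fold or 2-fold, added after the data were seen, the share of like-level genes further below ranged from 0.82% to 1.22% for Tubb4a, from 4.36% to 4.98% for Rab4b, from 7.29% to 8.25% for Syn1, from 8.42% to 11.02% for Rab3a and from 8.05% to 13.1% for Calm2. No paired analysis was possible because each condition had 1 mRNA library. Depth is unknown, so no counting error can be given for any value.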

Other observations

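Neighbouring genes were looked up by order in the RefSeq annotation (GRCm38.p6), and those named here were chosen after their values were seen. Timp1, a metalloproteinase inhibitor gene that lies within Syn1, had 1.63 FPKM with AAV-Gata1 and 1.48 FPKM with AAV-Control (0.085). Araf, which also overlaps Syn1, had 73.3 FPKM with AAV-Gata1 and 74.7 FPKM with AAV-Control (−0.027). Whether exons of these genes overlap was not looked up. Reads from a stretch shared by 2 genes cannot be told apart unless strand was used in counting. The microRNA genes Mir5617, within Syn1, and Mir3101, within Rab4b, were listed at 0 in both mRNA libraries.

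Egln2, a prolyl hydroxylase of the oxygen-sensing pathway and the gene next to Rab4b, had 29.7 FPKM with AAV-Gata1 and 34.9 FPKM with AAV-Control (−0.22), close to the −0.20 of Rab4b. On the other side of Rab4b, Mia had 5.88 FPKM with AAV-Gata1 and 5.67 FPKM with AAV-Control (0.044). Mpv17l2, a mitochondrial protein gene next to Rab3a, had 23.6 FPKM with AAV-Gata1 and 26.1 FPKM with AAV-Control (−0.14), beside −0.098 for Rab3a. Cfp, the properdin gene next to Syn1, was higher, at 9.75 FPKM with AAV-Gata1 and 8.73 FPKM with AAV-Control (0.14), beside −0.14 for Syn1. Gm11110, a noncoding gene next to Tubb4a, had 1.35 FPKM with AAV-Gata1 and 1.60 FPKM with AAV-Control (−0.15). On the other side of Tubb4a, Dennd1c had 0.173 FPKM with AAV-Gata1 and 0.121 FPKM with AAV-Control (0.067). Pde4c, on the other side of Rab3a, had 0 FPKM with AAV-Gata1 and 0.042 FPKM with AAV-Control. Both were below the minimum of a mean of 1 FPKM.

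Among the listed genes, those nearest to each of the 5 in the plane of the log2(FPKM + 1) values of the 2 libraries were Gripap1 and Dmxl2 for Rab4b (distances 0.0048 and 0.049), Camta1 and Arl2 for Syn1 (0.070 and 0.087), Stmn4 and Prkacb for Rab3a (0.090 and 0.15), Tuba1b and Tubb4b for Calm2 (0.12 and 0.12), and Nrgn and Syp for Tubb4a (0.15 and 0.18). With only 2 libraries this measures level and difference alone. Rab4b and its effector gene Gripap1 had nearly the same FPKM in each library, 19.86 and 19.87 with AAV-Gata1 and 22.88 and 22.80 with AAV-Control.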
